A study of Arabidopsis thaliana with 24 samples.

Results

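The cuticular wax and cutin genes described here are 46 Arabidopsis thaliana loci of the 27664 genes listed in each library. They were chosen by their locus names, with earlier results of these data known. They comprise 18 genes of wax synthesis, 12 of cutin synthesis, 5 of lipid export and 11 regulators, and 45 of the 46 had enough counts to be tested. Leaf mRNA was sequenced from the grf6 grf8 double mutant and from wild type (WT), with undried leaves (0 h) and leaves dehydrated for 2 h or 4 h, in 6 groups of 4 libraries. Plants were grown for 12 days on plates and then 12 days in soil, to an age of 24 days, and rosette leaves were frozen at the end of each interval. Both mutated genes belong to the 14-3-3 family, whose members dock onto phosphorylated proteins, and the study's title places both genes in drought tolerance. The labels give neither the mutant alleles nor the accession of the WT, and nothing in them says whether replicates came from separate plants, so p-values measure the spread between these libraries, which may be partly technical.

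The cuticle is a lipid layer that the epidermis lays down over the surface of leaves and stems, where it limits water loss once stomata have closed. Its matrix is cutin, a polyester of hydroxylated fatty acids and glycerol, and in and over that matrix lie waxes made of very long acyl chains. Wax synthesis lengthens fatty acids through repeated rounds of 4 enzyme steps and then converts them to alkanes, alcohols and esters. ABC transporters and lipid transfer proteins carry these lipids across the plasma membrane and the wall. In Arabidopsis, drought and abscisic acid raise leaf wax, and the transcription factor MYB96 is among the known activators of wax genes under these conditions.

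Total counts ran from 17.4 to 22.4 M counts per library, with a median of 18.5 M. GRF6 averaged 307, 77.7 and 49.2 CPM at 0 h, 2 h and 4 h in grf6 grf8, against 1573, 734 and 598 CPM in WT, where CPM are counts per M counts after scaling of the library totals. GRF8 averaged 83.01, 84.9 and 57.4 CPM in grf6 grf8 and 290.0, 122 and 106 CPM in WT. The summed level of 3 mesophyll markers was 11710.0 to 17600.0, 7006 to 10590.0 and 5037 to 6381 CPM at the 3 times in grf6 grf8 and 14790.0 to 19080.0, 3182 to 11130.0 and 2220.0 to 8668 CPM in WT, and the root gene CASP1 had no counts in any library. In 5 libraries the cell cycle score, the mean log2 CPM of 12 genes of DNA replication and division, lay over 1 above the median library. They were grf6 grf8 0 h replicate 1 (score 1.09), grf6 grf8 4 h replicates 1 and 2 (2.37 and 1.97), WT 2 h replicate 4 (1.03) and WT 4 h replicate 4 (2.12). The summed epidermal markers were also high in the 3 of them at 4 h, as given with the cutin genes. Calls lost without the 5 libraries are given with and without them. The 6 groups include no watered plants at 2 h or 4 h, so the effects of dehydration and of the hour cannot be told apart. In whole leaves a larger or smaller share of epidermal cells and more or less RNA per cell cannot be told apart either, for rises and falls alike.

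After dehydration most wax genes and part of the cutin genes rose in both genotypes, and the wax repressor DEWAX fell. At 2 h against 0 h, 25 of the 45 tested genes passed in grf6 grf8 (23 rose and 2 fell), where 43.5% of all 18841 tested genes passed (23.2% rose and 20.3% fell). In WT 27 passed at 2 h (25 rose and 2 fell), beside 42.3% of all tested genes (23.1% rose and 19.2% fell). At 4 h, 34 passed in grf6 grf8 (31 rose and 3 fell), beside 51.2% of all tested genes (28.1% rose and 23.1% fell), and 33 passed in WT (30 rose and 3 fell), beside 50.0% (27.8% rose and 22.2% fell). A gene passed at an adjusted p under 0.05 in edgeR's quasi-likelihood test, two-sided, with Benjamini-Hochberg adjustment over all tested genes, and every adjusted p below comes from this test unless another setting is named. In both genotypes and in the same direction, 24 genes passed at 2 h and 33 at 4 h. At 2 h the locus AT1G02190 passed in grf6 grf8 alone and CYP86A4, KCS9 and SHN3 in WT alone, while at 4 h CYP86A7 passed in grf6 grf8 alone, but no difference of response between the genotypes passed for any of the 45 genes. Of these calls, those of SHN3 and CYP86A7 were lost without the libraries with high scores, as given below, and that of KCS9 without WT 0 h replicate 3 or WT 2 h replicate 2. The 2 h call of AT1G02190 (2.31 on the log2 scale, adjusted p = 0.0466) was lost under 16 of the alternatives, among them without the 5 libraries (2.12 on the log2 scale, adjusted p = 0.0656).

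**Figure D1:**
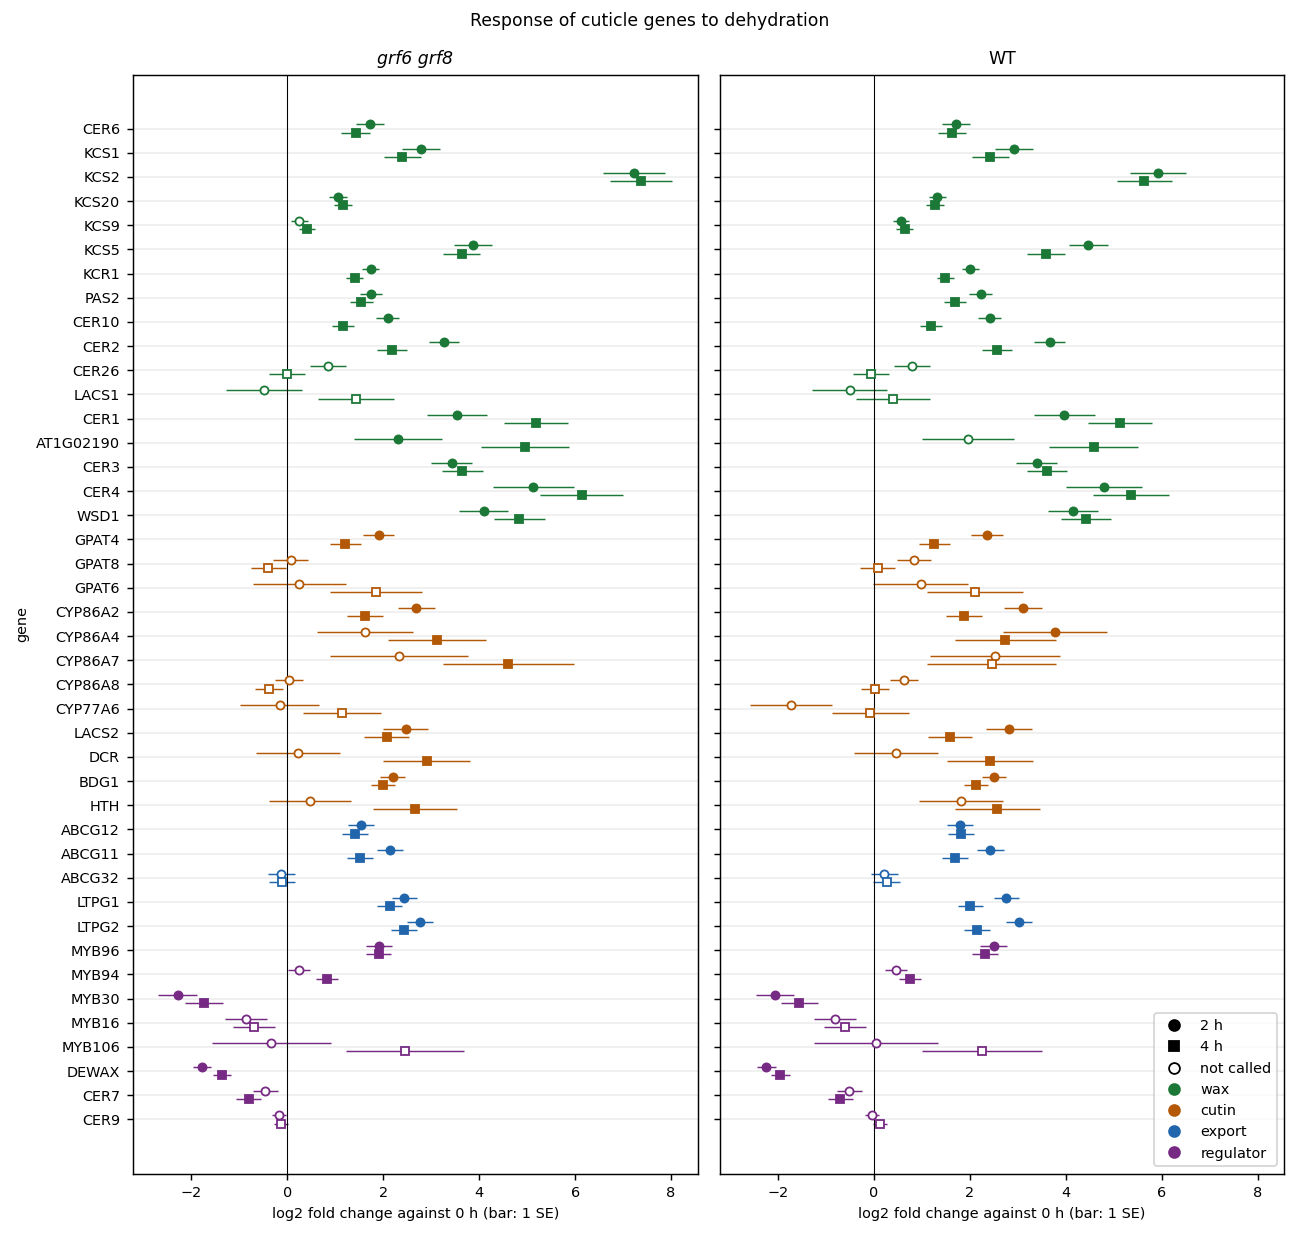
Log2 fold change at 2 h (circles) and 4 h (squares) against 0 h for 42 genes, in grf6 grf8 (left) and WT (right); bars are 1 SE of the fitted value and open symbols did not pass. MAH1, SHN1 and SHN3 are left out because all WT libraries at 0 h were at 0, and SHN2 was not tested. Most wax genes lie well right of 0 in both panels, whereas cutin genes are spread on both sides of 0, from -1.73 (CYP77A6 at 2 h in WT, which did not pass) to 4.61 (CYP86A7 at 4 h in grf6 grf8), and MYB30 and DEWAX lie left of 0 at both times.

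To show the regions from which these transcripts start, the 250 bases before the annotated start of 5 genes are printed, chosen because they cover alkane synthesis (CER1 and CER3), elongation (CER6), ester synthesis (WSD1) and cutin hydroxylation (CYP86A2), all of which rose. The sequences were read from the RefSeq TAIR10.1 genome along the gene's own strand, 5′ to 3′. Capitals mark 2 kinds of motif found on either strand: ACGTG, the core of the abscisic acid response element, and CNGTTA or CNGTTG, which MYB proteins are known to bind.
CER1 (chr1:418166-418415, plus strand): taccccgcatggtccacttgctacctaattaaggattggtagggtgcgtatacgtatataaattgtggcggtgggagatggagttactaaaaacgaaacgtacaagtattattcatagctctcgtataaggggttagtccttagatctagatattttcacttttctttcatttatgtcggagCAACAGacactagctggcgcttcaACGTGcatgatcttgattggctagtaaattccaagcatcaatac
CER3 (chr5:23419934-23420183, plus strand): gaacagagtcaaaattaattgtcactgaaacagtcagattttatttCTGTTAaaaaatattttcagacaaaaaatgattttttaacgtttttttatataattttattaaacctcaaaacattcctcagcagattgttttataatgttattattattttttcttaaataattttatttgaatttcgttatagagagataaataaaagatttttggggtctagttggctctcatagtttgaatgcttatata
CER6 (chr1:25715025-25715274, minus strand): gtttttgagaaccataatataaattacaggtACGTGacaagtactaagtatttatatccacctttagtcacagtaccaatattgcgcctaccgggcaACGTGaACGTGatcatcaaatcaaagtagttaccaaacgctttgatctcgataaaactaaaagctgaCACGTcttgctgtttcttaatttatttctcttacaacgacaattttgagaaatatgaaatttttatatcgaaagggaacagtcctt
WSD1 (chr5:14767176-14767425, plus strand): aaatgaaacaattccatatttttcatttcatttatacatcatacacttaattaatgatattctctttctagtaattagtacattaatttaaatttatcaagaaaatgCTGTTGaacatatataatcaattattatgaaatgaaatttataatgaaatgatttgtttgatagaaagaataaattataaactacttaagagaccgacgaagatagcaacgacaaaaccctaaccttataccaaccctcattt
CYP86A2 (chr4:160393-160642, plus strand): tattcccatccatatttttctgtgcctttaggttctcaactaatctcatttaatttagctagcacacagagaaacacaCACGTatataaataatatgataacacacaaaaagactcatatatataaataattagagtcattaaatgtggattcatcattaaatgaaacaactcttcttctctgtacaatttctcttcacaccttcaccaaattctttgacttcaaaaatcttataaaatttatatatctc
CER6 held the ACGTG core 4 times within 219 bases, and CER1 and CYP86A2 held it once each. Among the 45 tested genes, 8 had the core (17.8%), against 23.9% of the 18495 nuclear protein-coding genes tested. A MYB motif stood before 19 of the 45 (42.2%), against 42.1% of all, with 9 of 18 wax genes and 3 of 12 cutin genes. The GCC box, GCCGCC, the site of many ethylene response factors, occurred before 1 of the 45, GPAT6, against 2.0% of all, and none of these motifs overlapped another kind in the 5 printed windows. A match shows only that these letters stand in the window.

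Most genes of chain elongation rose. Of its 12 genes, 9 rose in grf6 grf8 and 10 in WT at 2 h, and 10 rose in each genotype at 4 h. Among all tested genes 23.2% rose at 2 h and 28.1% at 4 h in grf6 grf8, and 23.1% and 27.8% in WT. CER6 (AT1G68530, also KCS6) encodes the condensing enzyme for the longest wax precursors. Its transcript was the most abundant of the 46 per length at 2 h and 4 h, at 499 ± 64.7 and 408 ± 63.8 FPKM (fragments per kilobase per M fragments) in grf6 grf8 and 532 ± 129.8 and 487 ± 127 FPKM in WT (SD, n = 4). In grf6 grf8, CER6 stood at 236, 277, 257 and 402 CPM at 0 h, 886, 901, 1144 and 941 at 2 h and 639, 550.0, 891 and 1059 at 4 h, in replicate order as in all lists below. In WT, CER6 stood at 411, 205, 367 and 244 CPM at 0 h, 1197, 1204, 1034 and 560.3 at 2 h and 1082, 1347, 677 and 684 at 4 h. All later libraries lay above those at 0 h, and the genotypes overlapped at each time. At 4 h CER6 was 2.68-fold higher in grf6 grf8 (1.42 on the log2 scale, SE 0.294, adjusted p = 0.000396) and 3.09-fold higher in WT (1.63 on the log2 scale, SE 0.295, adjusted p = 0.000111).

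KCS2 (AT1G04220), another condensing enzyme, was nearly silent before dehydration and rose more than any other elongation gene. In grf6 grf8, KCS2 had 0.203, 0.779, 0.921 and 0.734 CPM at 0 h, 115, 72.99, 103 and 106 at 2 h and 121, 79.01, 108 and 129.7 at 4 h. In WT it had 4.48, 0.4804, 2.69 and 0.326 CPM at 0 h, 156, 156, 134 and 43.96 at 2 h and 131, 109, 89.5 and 75.3 at 4 h. The later libraries do not overlap those at 0 h in either genotype, and WT 2 h replicate 4 was the lowest of the 2 h libraries. The 4 h change was 7.37 on the log2 scale (SE 0.648, adjusted p = 1.28e-08) in grf6 grf8 and 5.63 on the log2 scale (SE 0.577, adjusted p = 1.07e-07) in WT. An antisense RNA overlaps KCS2 by 2302 bases, and its reads there cannot be told apart in these libraries, which do not keep strand. KCS20, whose coding sequence is 84.1% identical to that of KCS2, had means of 60.1, 125 and 134 CPM in grf6 grf8 and 59.2, 148 and 143 CPM in WT. KCS5 (AT1G25450) is 81.3% identical to CER6 in coding sequence. KCS5 had 2.54, 2.17, 1.84 and 2.83 CPM at 0 h, 43.8, 20.3, 44.3 and 28.9 at 2 h and 25.3, 49.4, 21.4 and 20.7 at 4 h in grf6 grf8. In WT, KCS5 had 1.82, 1.92, 2.53 and 1.197 CPM at 0 h, 59.02, 51.3, 34.1 and 21.8 at 2 h and 20.7, 29.8, 11.6 and 27.7 at 4 h. KCS5 was low in every 0 h library and above that range in every later one, with 4 h changes of 3.64 on the log2 scale (SE 0.391, adjusted p = 1.82e-07) in grf6 grf8 and 3.58 on the log2 scale (SE 0.394, adjusted p = 2.74e-07) in WT.

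The shared steps of the elongase also rose, though CER10 passed as lower at 4 h than at 2 h in both genotypes. KCR1 (AT1G67730) encodes the ketoacyl-CoA reductase. KCR1 had 25.9, 24.7, 27.02 and 35.1 CPM at 0 h, 101, 67.5, 115 and 92.4 at 2 h and 82.2, 66.2, 77.3 and 73.2 at 4 h in grf6 grf8. In WT, KCR1 had 27.8, 21.9, 25.4 and 28.9 CPM at 0 h, 113, 133, 97.8 and 74.96 at 2 h and 74.3, 85.5, 60.8 and 69.8 at 4 h. All later values exceeded those at 0 h, with 4 h changes of 1.41 on the log2 scale (SE 0.176, adjusted p = 1.30e-06) in grf6 grf8 and 1.48 on the log2 scale (SE 0.176, adjusted p = 7.79e-07) in WT. The dehydratase PAS2 averaged 21.6 ± 3.75, 72.2 ± 15.3 and 62.98 ± 9.99 CPM at the 3 times in grf6 grf8 and 16.7 ± 3.08, 78.1 ± 31.01 and 54.0 ± 7.93 CPM in WT (SD, n = 4), and it rose at both times in both. The enoyl-CoA reductase CER10 averaged 25.5 ± 4.21, 109 ± 28.5 and 57.1 ± 6.58 CPM in grf6 grf8 and 23.8 ± 4.36, 127 ± 46.5 and 53.99 ± 9.96 CPM in WT. CER2, which works with CER6 to make longer chains, averaged 15.7 ± 3.38, 152 ± 48.7 and 71.5 ± 5.67 CPM in grf6 grf8 and 15.96 ± 4.18, 202 ± 67.8 and 94.3 ± 38.6 CPM in WT. Both CER10 and CER2 had their highest means at 2 h. The condensing enzymes KCS1 and KCS20 rose at both times in both genotypes, KCS1 by 2.40 and 2.43 and KCS20 by 1.16 and 1.27 on the log2 scale at 4 h in grf6 grf8 and in WT. KCS9 moved least among the elongation genes that passed, with 0.42 on the log2 scale (SE 0.172, adjusted p = 0.0493) in grf6 grf8 at 4 h and 0.64 on the log2 scale (SE 0.173, adjusted p = 0.00434) in WT, and its grf6 grf8 call was lost under 26 of the alternatives, among them without the 5 libraries with high scores (0.50 on the log2 scale, adjusted p = 0.0535). CER26, a relative of CER2, and LACS1, an acyl-CoA synthetase, did not pass at either time in either genotype.

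All 4 alkane genes passed as higher at 4 h in both genotypes. Beside them 28.1% of all tested genes rose at 4 h in grf6 grf8 and 27.8% in WT. CER1 (AT1G02205), which with CER3 forms the enzyme complex that makes alkanes, was the only one of the genes listed by library here whose 4 h libraries all lay above its 2 h libraries in both genotypes. In grf6 grf8, CER1 had 7.15, 5.23, 29.7 and 15.99 CPM at 0 h, 161, 139, 199 and 175 at 2 h and 557, 557, 472 and 525 at 4 h. In WT, CER1 had 27.5, 1.98, 11.2 and 2.67 CPM at 0 h, 179, 194, 159 and 149.8 at 2 h and 505, 471, 195 and 359 at 4 h. WT 4 h replicate 3 was the lowest of the 4 h libraries and only slightly above WT at 2 h. CER1 was 36.3-fold higher at 4 h than at 0 h in grf6 grf8 (5.18 on the log2 scale, SE 0.667, adjusted p = 1.89e-06) and 35.1-fold higher in WT (5.13 on the log2 scale, SE 0.666, adjusted p = 2.29e-06), while 4 h against 2 h did not pass in either (adjusted p = 0.0621 and 0.251). Per length, CER1 held place 24 of the 46 at 0 h and place 2 at 4 h in each genotype.

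CER3 (AT5G57800), the partner of CER1, had 16.02, 22.5, 29.7 and 27.7 CPM at 0 h, 268, 199, 321 and 241 at 2 h and 216, 209, 360.4 and 413 at 4 h in grf6 grf8. In WT, CER3 had 54.6, 17.2, 28.3 and 20.3 CPM at 0 h, 422, 365, 349 and 126 at 2 h and 481, 526, 225 and 234 at 4 h. The 4 h values of CER3 overlapped those at 2 h, and the libraries with high cell cycle scores were the low ones of grf6 grf8 at 4 h and of WT at 2 h. The 4 h change of CER3 was 3.64 on the log2 scale (SE 0.427, adjusted p = 5.63e-07) in grf6 grf8 and 3.60 on the log2 scale (SE 0.425, adjusted p = 6.91e-07) in WT. Without the 5 libraries with high scores it was 3.86 (adjusted p = 6.39e-07) and 3.74 (adjusted p = 1.04e-07). The locus AT1G02190 is 65.6% identical to CER1 in coding sequence over 1860 aligned bases. AT1G02190 had 0.0507, 0, 0.108 and 0.2098 CPM at 0 h, 0.0555, 0.335, 1.04 and 0.487 at 2 h and 3.94, 5.97, 1.11 and 1.22 at 4 h in grf6 grf8. In WT, AT1G02190 had 0.133, 0, 0.0528 and 0.109 CPM at 0 h, 0.771, 0.258, 0.112 and 0.0974 at 2 h and 2.14, 2.13, 0.759 and 2.74 at 4 h. Its level stayed far under that of CER1, and all 4 h values lay above those at 0 h (4.95 on the log2 scale, SE 0.920, adjusted p = 0.000134 in grf6 grf8; 4.57 on the log2 scale, SE 0.928, adjusted p = 0.00035 in WT). MAH1 encodes the hydroxylase that turns alkanes into secondary alcohols and ketones. MAH1 had 0.152, 0, 0 and 0 CPM at 0 h, 0, 0, 0.855 and 0.0975 at 2 h and 8.14, 5.299, 0.527 and 0 at 4 h in grf6 grf8. In WT, MAH1 was at 0 CPM in all 0 h libraries, at 0, 0.103, 0.0562 and 2.14 at 2 h and at 0.676, 0.322, 0 and 15.6 at 4 h, at least 26.9-fold higher at 4 h against a floor of 3 counts per library. Only libraries with high scores exceeded 1 CPM, and the 4 h calls of MAH1 (adjusted p = 0.0242 in grf6 grf8 and 0.0105 in WT) were lost without those libraries (adjusted p = 0.126 and 0.0521). Leaving out WT 4 h replicate 4 alone also ended the WT call, and leaving out grf6 grf8 4 h replicate 1 or 0 h replicate 2, 3 or 4 ended that of grf6 grf8.

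Genes of alcohol and ester formation rose with those of alkanes. WSD1 (AT5G37300) encodes the wax ester synthase. WSD1 had 1.01, 1.84, 4.93 and 2.26 CPM at 0 h, 34.3, 28.5, 59.2 and 49.1 at 2 h and 79.3, 59.8, 63.02 and 83.9 at 4 h in grf6 grf8. In WT, WSD1 had 3.51, 0.427, 5.49 and 1.25 CPM at 0 h, 48.6, 52.4, 41.2 and 48.4 at 2 h and 73.3, 73.1, 33.3 and 50.4 at 4 h. The 0 h libraries all lay below the others, and the genotypes overlapped at every time. The 4 h change of WSD1 was 4.83 on the log2 scale (SE 0.530, adjusted p = 2.38e-07) in grf6 grf8 and 4.42 on the log2 scale (SE 0.519, adjusted p = 6.55e-07) in WT. CER4 (AT4G33790) encodes the reductase that makes primary alcohols. CER4 had 0, 0, 0.108 and 0.4195 CPM at 0 h, 2.89, 4.84, 5.08 and 6.68 at 2 h and 14.7, 6.504, 7.56 and 10.3 at 4 h in grf6 grf8. In WT, CER4 had 0.666, 0.214, 0.0528 and 0 CPM at 0 h, 10.1, 9.99, 1.74 and 5.99 at 2 h and 14.3, 12.04, 3.795 and 11.1 at 4 h. CER4 was at or near 0 before dehydration and above that range in every later library (6.13 on the log2 scale, SE 0.860, adjusted p = 5.32e-06 in grf6 grf8; 5.36 on the log2 scale, SE 0.796, adjusted p = 1.18e-05 in WT).

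**Figure D2:**
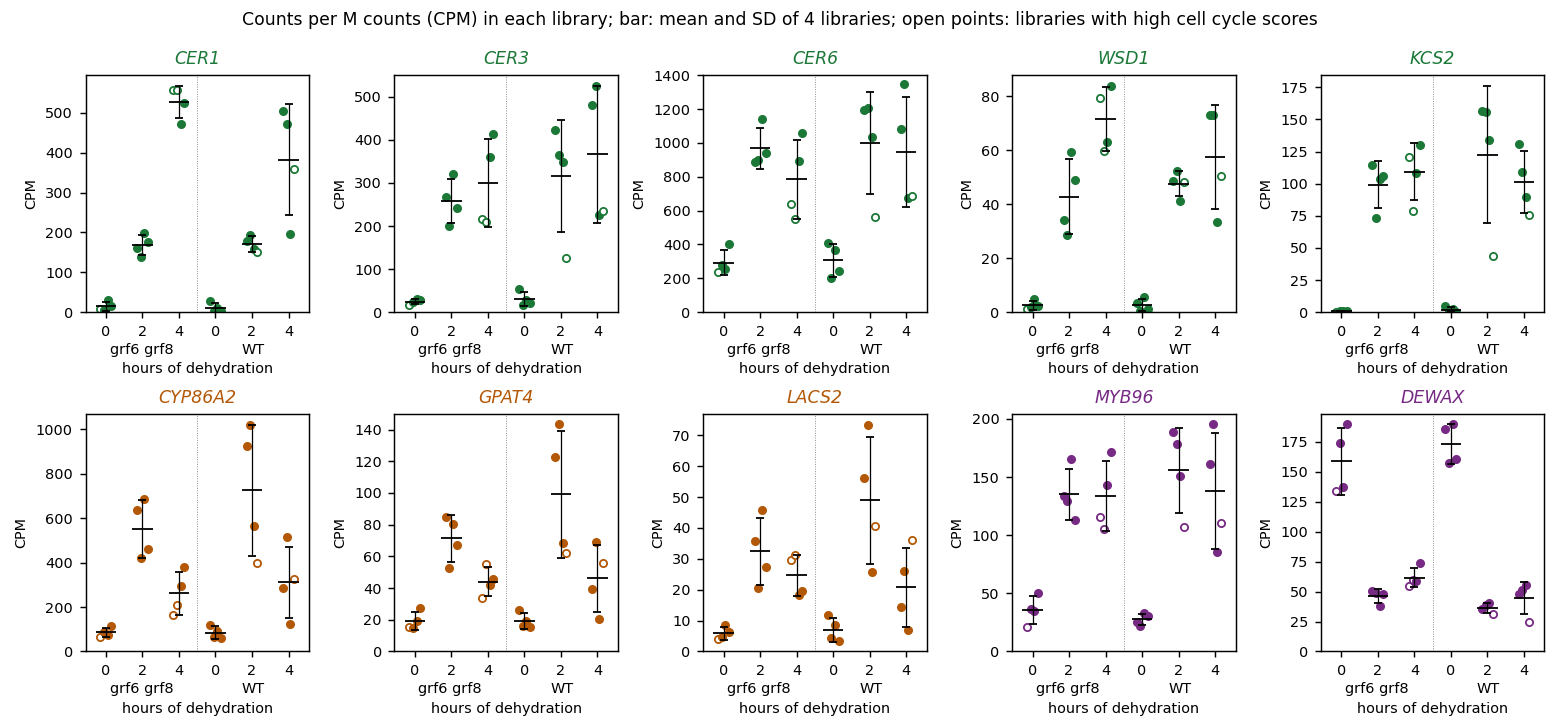
CPM of 10 genes in each library, with 0 h, 2 h and 4 h of grf6 grf8 left of those of WT; bars give the mean and SD of 4 libraries and open points are the 5 libraries with high cell cycle scores. CER1 climbs through 4 h to a mean of 527 CPM in grf6 grf8 and 383 CPM in WT, CYP86A2 is highest at 2 h, with means of 551 and 726 CPM, and DEWAX is highest at 0 h.

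Some cutin genes rose by 2 h, and others were high in a few 4 h libraries. At 2 h, 4 of the 12 rose in grf6 grf8 and 5 in WT, and at 4 h 8 and 7 rose. Of all tested genes, 23.2% and 23.1% rose at 2 h and 28.1% and 27.8% at 4 h. The 4 of 12 in grf6 grf8 at 2 h are not far above that share. Among the enzymes that make cutin monomers, CYP86A2 (AT4G00360), a fatty acid omega-hydroxylase, was the most abundant. In grf6 grf8, CYP86A2 had 64.8, 85.9, 76.1 and 115 CPM at 0 h, 637, 421, 684 and 462 at 2 h and 162, 210.0, 296 and 382 at 4 h. In WT it had 120.4, 67.2, 92.2 and 59.1 CPM at 0 h, 925, 1020.0, 563 and 396 at 2 h and 285, 514, 123 and 325 at 4 h. Every later library lay above 0 h, and in grf6 grf8 the 4 h libraries all lay below the 2 h ones. CYP86A2 was 6.46-fold higher at 2 h in grf6 grf8 (2.69 on the log2 scale, SE 0.389, adjusted p = 1.34e-05) and 8.57-fold higher in WT (3.10 on the log2 scale, SE 0.396, adjusted p = 2.81e-06). At 4 h its fold change against 0 h was 3.08 in grf6 grf8 (adjusted p = 0.00112) and 3.68 in WT (adjusted p = 0.00032). An antisense RNA and a neighbouring gene overlap part of CYP86A2, so its counts may hold reads of both. Loci on the other strand also overlap CER10, CER2, BDG1, ABCG11, LTPG1, MYB106, SHN2 and CER7, by 1579 bases in MYB106. The counts of these genes may likewise hold reads of the overlapping loci.

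GPAT4 (AT1G01610) encodes an acyltransferase that joins the hydroxylated acid to glycerol. GPAT4 had 15.3, 14.97, 18.9 and 27.1 CPM at 0 h, 84.7, 52.4, 80.7 and 67.4 at 2 h and 33.5, 55.1, 41.9 and 45.9 at 4 h in grf6 grf8. In WT, GPAT4 had 26.1, 16.1, 19.5 and 15.5 CPM at 0 h, 123, 143, 68.4 and 62.3 at 2 h and 39.4, 68.8, 20.4 and 55.5 at 4 h. Its mean was highest at 2 h, and in WT replicate 3 at 4 h was back within the 0 h range. GPAT4 changed at 2 h by 1.90 on the log2 scale (SE 0.326, adjusted p = 8.80e-05) in grf6 grf8 and by 2.36 on the log2 scale (SE 0.331, adjusted p = 8.97e-06) in WT, and at 4 h by 1.21 on the log2 scale (SE 0.321, adjusted p = 0.00345) and 1.25 on the log2 scale (SE 0.321, adjusted p = 0.00276). GPAT8 (AT4G00400) acts alongside GPAT4 and is 83.2% identical to it in coding sequence. GPAT8 had 11.1, 12.9, 13.6 and 21.97 CPM at 0 h, 18.4, 12.5, 18.9 and 12.7 at 2 h and 9.81, 15.2, 8.73 and 11.5 at 4 h in grf6 grf8. In WT, GPAT8 had 16.4, 8.92, 12.98 and 12.4 CPM at 0 h, 29.8, 28.7, 14.2 and 17.7 at 2 h and 11.4, 20.2, 3.85 and 17.95 at 4 h. The times overlap in both genotypes, and GPAT8 did not pass at either time (adjusted p = 0.895 and 0.376 in grf6 grf8, 0.0672 and 0.882 in WT).

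LACS2 (AT1G49430) encodes the acyl-CoA synthetase that activates cutin precursors. LACS2 had 3.95, 4.68, 8.503 and 6.35 CPM at 0 h, 35.7, 20.6, 45.8 and 27.4 at 2 h and 29.5, 31.3, 18.2 and 19.4 at 4 h in grf6 grf8. In WT, LACS2 had 11.8, 4.22, 8.497 and 3.26 CPM at 0 h, 56.2, 73.4, 25.6 and 40.7 at 2 h and 14.4, 25.95, 6.95 and 35.99 at 4 h. The 2 h libraries lay above those at 0 h in both genotypes, whereas at 4 h the libraries with high scores were the highest in each. LACS2 changed at 2 h by 2.46 on the log2 scale (SE 0.467, adjusted p = 0.000246) in grf6 grf8 and 2.81 on the log2 scale (SE 0.470, adjusted p = 6.68e-05) in WT. At 4 h the change was 2.07 on the log2 scale (SE 0.462, adjusted p = 0.000822) in grf6 grf8 and 1.58 on the log2 scale (SE 0.454, adjusted p = 0.00647) in WT. Without the 5 libraries it was 1.53 (adjusted p = 0.0249) and 1.15 (adjusted p = 0.0412). BDG1 (AT1G64670) encodes an extracellular hydrolase needed for normal cutin. BDG1 had 3.24, 2.12, 2.004 and 2.73 CPM at 0 h, 10.8, 10.3, 12.4 and 12.7 at 2 h and 9.86, 11.4, 10.3 and 8.53 at 4 h in grf6 grf8. In WT, BDG1 had 2.795, 1.92, 1.85 and 2.99 CPM at 0 h, 17.3, 17.9, 9.44 and 9.78 at 2 h and 11.2, 10.5, 6.48 and 13.5 at 4 h. BDG1 was higher in every later library than at 0 h, with 4 h changes of 1.99 on the log2 scale (SE 0.252, adjusted p = 1.57e-06) in grf6 grf8 and 2.12 on the log2 scale (SE 0.253, adjusted p = 8.15e-07) in WT.

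DCR and HTH, by contrast, were high in single 4 h libraries. DCR (AT5G23940) encodes an acyltransferase of cutin assembly. DCR had 5.37, 1.61, 2.65 and 3.15 CPM at 0 h, 4.55, 1.77, 6.88 and 1.71 at 2 h and 32.5, 56.6, 2.87 and 3.98 at 4 h in grf6 grf8. In WT, DCR had 2.62, 2.46, 2.16 and 2.502 CPM at 0 h, 2.31, 3.86, 3.48 and 3.75 at 2 h and 2.65, 2.51, 3.85 and 43.01 at 4 h. The 3 high values belong to the 3 libraries at 4 h with high cell cycle scores, and the other 5 at 4 h lie within the range of the earlier times. DCR passed at 4 h (2.90 on the log2 scale, SE 0.901, adjusted p = 0.0103 in grf6 grf8; 2.42 on the log2 scale, SE 0.894, adjusted p = 0.0291 in WT) but not without those libraries (0.47 on the log2 scale, adjusted p = 0.418 in grf6 grf8; 0.28 on the log2 scale, adjusted p = 0.564 in WT). The DCR call was also lost without grf6 grf8 4 h replicate 2 alone, and in WT without 4 h replicate 4 or any single 0 h library. HTH (AT1G72970) encodes an oxidoreductase-like protein of cutin formation. HTH had 2.08, 1.17, 1.52 and 1.15 CPM at 0 h, 2.33, 1.39, 3.04 and 1.46 at 2 h and 16.8, 17.1, 2.11 and 1.54 at 4 h in grf6 grf8. In WT, HTH had 1.02, 1.12, 1.06 and 1.03 CPM at 0 h, 2.31, 3.25, 0.843 and 8.52 at 2 h and 1.802, 1.61, 1.17 and 20.3 at 4 h. The same 3 libraries stand out, WT 2 h replicate 4 is the highest of those at 2 h, and the 4 h calls of HTH (2.66 on the log2 scale, SE 0.877, adjusted p = 0.0149 in grf6 grf8; 2.56 on the log2 scale, SE 0.886, adjusted p = 0.0205 in WT) were lost without them (adjusted p = 0.333 and 0.257). Leaving out grf6 grf8 4 h replicate 1 or 2 alone, or WT 4 h replicate 4 alone, also ended them.

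The remaining cutin genes were low. CYP86A8 and GPAT8 had group means between 7.68 and 22.6 CPM, and GPAT6, CYP86A4, CYP86A7 and CYP77A6 had means under 5 CPM in every group. The highest 4 h values of GPAT6, CYP86A4, CYP86A7, CYP86A8 and CYP77A6 were in libraries with high scores. GPAT6, an acyltransferase best known from flowers, had 4.45, 6.31, 0.644 and 0.0642 CPM in grf6 grf8 and 0.676, 0.708, 0.759 and 5.96 CPM in WT at 4 h. CYP86A4, a further omega-hydroxylase, had 8.39, 9.83, 1.29 and 0.257 CPM in grf6 grf8 and 0.338, 0.644, 0.526 and 6.75 CPM in WT at 4 h. CYP86A4 passed at 4 h (3.12 on the log2 scale, SE 1.02, adjusted p = 0.0144 in grf6 grf8; 2.74 on the log2 scale, SE 1.06, adjusted p = 0.0361 in WT) but not without the 5 libraries (1.03 on the log2 scale, adjusted p = 0.341 in grf6 grf8; 0.66 on the log2 scale, adjusted p = 0.494 in WT). Its calls were also lost without grf6 grf8 4 h replicate 2 alone, and in WT without 4 h replicate 4 or 0 h replicate 1, 2 or 3. CYP86A7, of the same hydroxylase family, had 2.22, 2.02, 0.176 and 0 CPM in grf6 grf8 and 0, 0.0644, 0.234 and 0.882 CPM in WT at 4 h. Its grf6 grf8 call at 4 h (4.61 on the log2 scale, SE 1.36, adjusted p = 0.00754) was lost without the 5 libraries (1.98 on the log2 scale, adjusted p = 0.385). At 4 h, the libraries with high scores lay above all others of their group in both genotypes for 8 of 12 cutin genes, 7 of 11 regulators, 4 of 18 wax genes and 1 of 5 export genes, beside 30.4% of all tested genes. They lay below the others in both genotypes for 1 of the 46, CER9, beside 24.7% of all. The summed level of 5 epidermal markers was 121.8 and 158.3 CPM in grf6 grf8 4 h replicates 1 and 2, against 32.9 and 34.7 CPM in replicates 3 and 4. It was 194.8 CPM in WT 4 h replicate 4, against 25.1 to 44.1 CPM in the other WT libraries at 4 h. Summed trichome markers stood at 12.99 and 30.4 CPM, against 2.52 and 2.44 CPM, in the same 4 libraries of grf6 grf8, and at 23.2 CPM in WT 4 h replicate 4. At 0 h and 2 h the epidermal sum was 65.5 to 107 and 44.6 to 81.5 CPM in grf6 grf8 and 61.3 to 74.4 and 67.8 to 82.5 CPM in WT. Of its 5 markers, PDF1 averaged 40.6 and 25.5 CPM at 4 h in grf6 grf8 and WT, against 1.63 and 0.129 at 0 h. HDG2 also had higher means at 4 h than at 0 h, whereas ATML1, PDF2 and ACR4 had lower ones in both. Summed guard cell markers were 49.3, 33.7, 86.7 and 42.4 CPM in grf6 grf8 at 4 h, in replicate order. In WT at 4 h they were 64.5, 33.2, 58.8 and 20.95 CPM. The part of tissue make-up in the 4 h values of DCR, HTH and the others of the 46 genes named here was not tested.

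**Figure D3:**
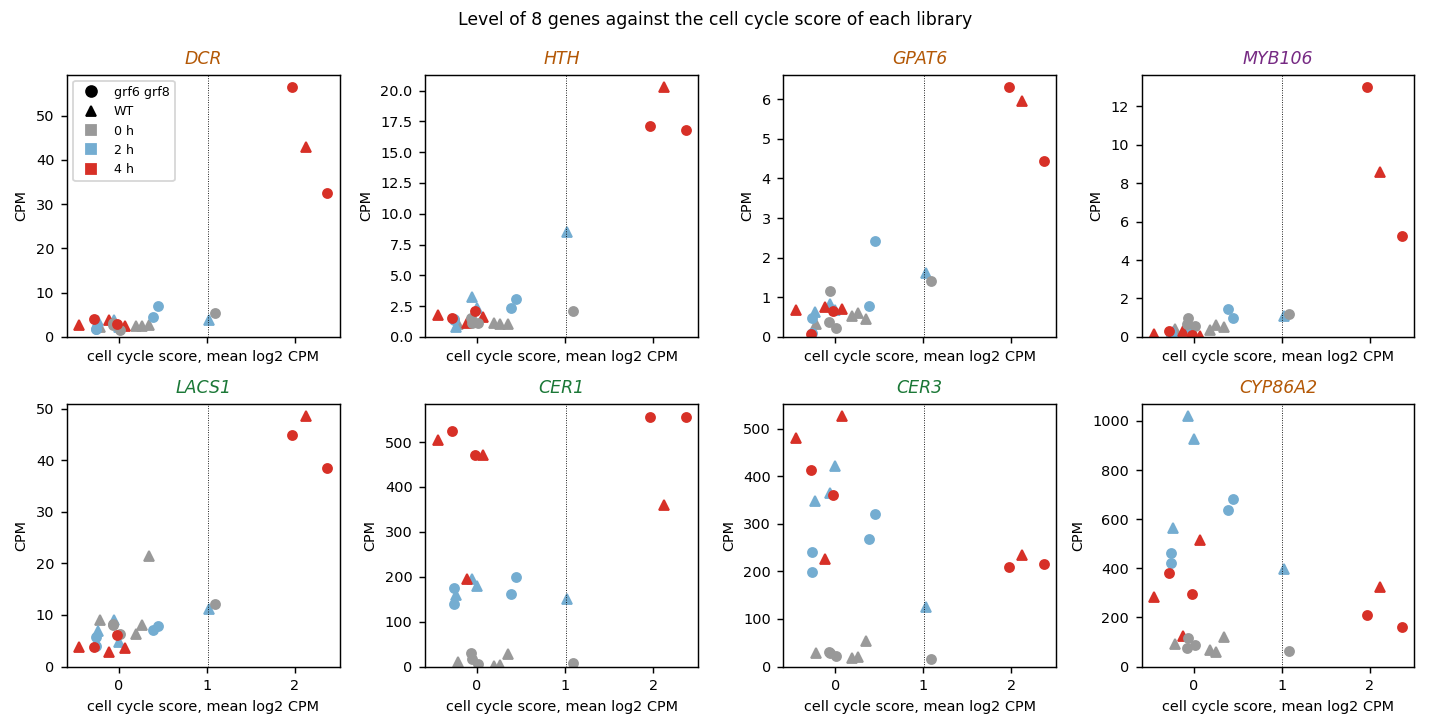
CPM of 8 genes against the cell cycle score (mean log2 CPM of 12 genes) in 24 libraries; circles are grf6 grf8 and triangles WT, colours mark the time, and the dotted line is 1 above the median score. DCR, HTH, GPAT6, MYB106 and LACS1 are high in the 3 libraries at 4 h with scores near 2 and low in the other libraries at 4 h, whereas CER1, CER3 and CYP86A2 are high after dehydration at low scores too.

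Of the 5 export genes 4 rose. Among all tested genes 23.2% rose at 2 h and 28.1% at 4 h in grf6 grf8, and 23.1% and 27.8% in WT. ABCG12, ABCG11, LTPG1 and LTPG2 rose at both times in both genotypes, and ABCG32, a transporter of cutin precursors, did not pass at either. LTPG2 (AT3G43720) encodes a lipid transfer protein anchored at the cell surface. LTPG2 had 6.995, 5.68, 7.85 and 7.08 CPM at 0 h, 56.1, 39.4, 51.99 and 41.2 at 2 h and 33.9, 37.7, 41.8 and 35.4 at 4 h in grf6 grf8. In WT, LTPG2 had 12.2, 6.35, 6.81 and 6.47 CPM at 0 h, 77.4, 88.2, 57.98 and 35.8 at 2 h and 39.02, 48.2, 22.7 and 31.4 at 4 h. All later libraries were above 0 h, with 4 h changes of 2.43 on the log2 scale (SE 0.268, adjusted p = 2.63e-07) in grf6 grf8 and 2.15 on the log2 scale (SE 0.265, adjusted p = 1.21e-06) in WT. LTPG1 (AT1G27950), its relative, had 23.3, 25.7, 26.4 and 33.6 CPM at 0 h, 155, 123, 156 and 157 at 2 h and 123, 139, 120.1 and 97.8 at 4 h in grf6 grf8. In WT, LTPG1 had 40.8, 20.4, 26.4 and 19.6 CPM at 0 h, 205, 262, 133 and 128 at 2 h and 101, 139, 66.7 and 123 at 4 h. LTPG1 likewise did not overlap its 0 h range (2.14 on the log2 scale, SE 0.262, adjusted p = 9.76e-07 in grf6 grf8; 2.00 on the log2 scale, SE 0.260, adjusted p = 2.38e-06 in WT).

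ABCG12 (AT1G51500, also CER5) encodes a half-transporter that exports wax. ABCG12 had 66.7, 80.8, 95.6 and 127 CPM at 0 h, 254, 256, 324 and 243 at 2 h and 222, 198, 273 and 293 at 4 h in grf6 grf8. In WT, ABCG12 had 95.9, 67.9, 99.5 and 88.1 CPM at 0 h, 381, 372, 292 and 172 at 2 h and 346, 442, 166 and 273 at 4 h. It held its raised level through 4 h without overlap with 0 h (1.41 on the log2 scale, SE 0.270, adjusted p = 0.000182 in grf6 grf8; 1.80 on the log2 scale, SE 0.273, adjusted p = 1.50e-05 in WT). ABCG11, which pairs with ABCG12 and also serves cutin export, averaged 33.2 ± 8.47, 146 ± 22.2 and 94.5 ± 9.17 CPM at the 3 times in grf6 grf8 and 32.9 ± 7.59, 177 ± 63.2 and 106 ± 37.3 CPM in WT (SD, n = 4). ABCG32 averaged 52.01 ± 16.7, 47.6 ± 14.8 and 48.2 ± 7.21 CPM in grf6 grf8 and 46.2 ± 2.88, 53.6 ± 14.8 and 55.2 ± 23.1 CPM in WT.

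Among the regulators MYB96 and MYB94 rose, and DEWAX and MYB30 fell, at 4 h in both genotypes. MYB96 (AT5G62470), the activator of wax genes named above, had 21.2, 36.2, 35.2 and 50.7 CPM at 0 h, 133, 129, 165 and 113 at 2 h and 115, 105, 143 and 172 at 4 h in grf6 grf8. In WT, MYB96 had 25.5, 22.3, 32.8 and 30.5 CPM at 0 h, 189, 178, 151 and 107 at 2 h and 161, 196, 85.5 and 110.2 at 4 h. The later libraries all lay above 0 h. MYB96 changed at 4 h by 1.90 on the log2 scale (SE 0.267, adjusted p = 5.45e-06) in grf6 grf8 and 2.31 on the log2 scale (SE 0.271, adjusted p = 6.38e-07) in WT. DEWAX (AT5G61590) encodes an ERF factor that represses wax genes in darkness. DEWAX had 134, 174, 137 and 190.2 CPM at 0 h, 50.2, 48.9, 37.7 and 48.1 at 2 h and 54.9, 59.6, 58.5 and 73.5 at 4 h in grf6 grf8. In WT, DEWAX had 186, 157, 190.0 and 161 CPM at 0 h, 35.8, 38.7, 40.6 and 31.01 at 2 h and 47.6, 51.3, 55.4 and 25.01 at 4 h. Every later library lay below 0 h, and the WT library at 4 h with a high score was the lowest of all. DEWAX changed at 4 h by -1.37 on the log2 scale (SE 0.188, adjusted p = 4.30e-06) in grf6 grf8 and -1.95 on the log2 scale (SE 0.191, adjusted p = 5.98e-08) in WT, and per length it was the most abundant of the 46 at 0 h in both genotypes, at 179 ± 24.4 FPKM in grf6 grf8 and 198 ± 18.9 FPKM in WT.

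MYB94 (AT3G47600) is an activator that acts together with MYB96 and is 84.4% identical to it in coding sequence. MYB94 had 5.93, 6.35, 8.02 and 10.2 CPM at 0 h, 8.601, 9.53, 10.97 and 7.11 at 2 h and 16.8, 16.3, 10.3 and 10.5 at 4 h in grf6 grf8. In WT, MYB94 had 7.898, 6.51, 6.76 and 7.67 CPM at 0 h, 8.37, 12.7, 10.2 and 8.23 at 2 h and 11.3, 11.5, 8.29 and 17.4 at 4 h. It was above 0 h in all 4 h libraries, most of all in those with high scores. Its 4 h change was 0.82 on the log2 scale (SE 0.231, adjusted p = 0.00526) in grf6 grf8 and 0.75 on the log2 scale (SE 0.231, adjusted p = 0.0101) in WT. Without the 5 libraries it was 0.34 (adjusted p = 0.196) and 0.500 (adjusted p = 0.0281), and without WT 4 h replicate 4 alone the WT call was lost. MYB30 (AT3G28910) activates genes of very long acyl chains during defence. MYB30 had 7.198, 6.46, 6.01 and 8.29 CPM at 0 h, 1.39, 2.63, 0.427 and 1.27 at 2 h and 1.87, 2.75, 3.05 and 0.706 at 4 h in grf6 grf8. In WT, MYB30 had 7.77, 8.33, 6.28 and 8.27 CPM at 0 h, 1.39, 1.91, 1.69 and 2.29 at 2 h and 2.25, 2.51, 2.04 and 3.57 at 4 h. MYB30 fell below its 0 h range at both times in both genotypes, with 4 h changes of -1.73 on the log2 scale (SE 0.391, adjusted p = 0.000908) in grf6 grf8 and -1.56 on the log2 scale (SE 0.387, adjusted p = 0.00219) in WT.

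Regulators of cutin were low and varied between libraries. SHN1 (AT1G15360) encodes an ERF activator of cutin genes. SHN1 had 0, 0, 0 and 0 CPM at 0 h, 0, 0, 0.997 and 0 at 2 h and 0.859, 0.819, 0 and 0 at 4 h in grf6 grf8. In WT, SHN1 was at 0 CPM in every library at 0 h and 2 h and had 0, 0, 0 and 0.441 CPM at 4 h. SHN1 had no counts in 20 of the 24 libraries. SHN3 (AT5G25390), its relative, had 0.304, 0, 0 and 0 CPM at 0 h, 0.167, 0, 0.285 and 0.0975 at 2 h and 5.41, 2.99, 0.469 and 0.0642 at 4 h in grf6 grf8. In WT, SHN3 was at 0 CPM in all 0 h libraries, at 0, 0.258, 0 and 2.34 at 2 h and at 0.169, 0.258, 0 and 2.65 at 4 h. SHN3 passed at 4 h in both genotypes (adjusted p = 0.0302 in grf6 grf8 and 0.0273 in WT) and at 2 h in WT (adjusted p = 0.0399), but in neither without the libraries with high scores (adjusted p = 0.0537 and 0.0743 at 4 h and 0.14 at 2 h in WT). Its WT calls were also lost without replicate 4 of the later time or any single 0 h library, and its grf6 grf8 call without 4 h replicate 1 or 2 or 0 h replicate 2, 3 or 4. SHN2 reached 46 counts in its highest library and was not tested. MYB106, which acts with SHN1, had 5.26, 13.01, 0.117 and 0.321 CPM in grf6 grf8 and 0.169, 0.0644, 0.292 and 8.601 CPM in WT at 4 h and did not pass. MYB16, its relative, did not pass either and averaged 13.5 ± 2.42, 7.46 ± 1.92 and 8.28 ± 5.59 CPM in grf6 grf8 and 10.7 ± 2.04, 6.05 ± 2.92 and 6.92 ± 4.296 CPM in WT.

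CER7 and CER9 act on RNA and protein. CER7 (AT3G60500) encodes an exosome subunit on which CER3 expression depends. CER7 had 15.7, 15.5, 15.1 and 15.9 CPM at 0 h, 11.9, 10.6, 11.7 and 11.01 at 2 h and 12.4, 11.6, 6.15 and 5.39 at 4 h in grf6 grf8. In WT, CER7 had 15.7, 15.3, 16.9 and 16.8 CPM at 0 h, 10.4, 11.6, 10.3 and 12.9 at 2 h and 7.77, 7.21, 6.89 and 17.8 at 4 h. It was lower after dehydration in all libraries but WT 4 h replicate 4. CER7 changed at 4 h by -0.81 on the log2 scale (SE 0.260, adjusted p = 0.0135) in grf6 grf8 and -0.70 on the log2 scale (SE 0.260, adjusted p = 0.0294) in WT, and without the 5 libraries by -1.43 (adjusted p = 3.87e-08) and -1.17 (adjusted p = 2.15e-08). The WT call of CER7 was lost under the stricter filter, with only the groups compared, and without WT 4 h replicate 1, 2 or 3, and the grf6 grf8 call without grf6 grf8 4 h replicate 3. CER9 (AT4G34100) encodes a ubiquitin ligase that restrains cuticle formation. CER9 had 149.8, 162, 196 and 203 CPM at 0 h, 144, 176, 166 and 147 at 2 h and 129, 152, 191 and 179 at 4 h in grf6 grf8. In WT, CER9 had 166, 137, 167 and 184 CPM at 0 h, 167, 158, 171 and 142 at 2 h and 185, 218, 158 and 152 at 4 h. The times overlap, and CER9 did not pass at either (adjusted p = 0.378 and 0.495 in grf6 grf8, 0.874 and 0.499 in WT).

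More of the wax genes than of the cutin genes passed as higher. At 2 h, 14 of 18 wax genes rose in each genotype, with a median log2 fold change of 2.37 in grf6 grf8 and 2.67 in WT, and the cutin medians were 1.04 and 2.09. With MAH1 at the bound that a floor of 3 counts per library allows in WT, the WT wax median at 2 h was 2.32. At 4 h, 16 of 18 wax genes rose in each genotype, with medians of 2.29 in grf6 grf8 and 2.49 in WT, and the cutin medians were 1.92 and 1.99. The medians of all tested genes lay between 0.01 and 0.07. In grf6 grf8 and WT, 23.2% and 23.1% of them rose at 2 h and 28.1% and 27.8% at 4 h. At 2 h the wax median minus the cutin median was 1.328 in grf6 grf8, and 0.538 under the stricter filter. In WT at 2 h this difference was 0.58 with MAH1 at its fitted value. With MAH1 at the bound it was smaller, from medians of 2.32 and 2.09. The difference in WT at 2 h was 1.097 without WT 2 h replicate 4, 1.102 without the 5 libraries and 0.301 under the stricter filter. At 4 h this difference was 0.374 in grf6 grf8 and 0.505 in WT, and without the 5 libraries with high scores it was 1.61 and 1.86. Leaving out WT 4 h replicate 4 alone gave 1.85 in WT, and leaving out grf6 grf8 4 h replicate 4 alone gave 0.07 in grf6 grf8. Without the 5 libraries 4 of 12 cutin genes rose at 4 h in grf6 grf8 and none fell, with a median of 0.77, and in WT 4 rose and CYP77A6 fell, with a median of 0.61. Of the 18 wax genes 14 then rose in grf6 grf8 (median 2.38) and 15 in WT (2.47), where LACS1 fell, beside 29.1% (grf6 grf8) and 30.3% (WT) of all tested genes that rose and 30.6% and 32.2% that fell. The classes were compared by these counts and medians alone, without a test.

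The summed levels weigh abundant genes most and gave another order at 2 h than the class medians. Against 0 h, the cutin sum at 2 h rose by a larger factor than the wax sum in both genotypes. The summed wax level was 575 ± 121 CPM at 0 h, 2411 ± 329.6 at 2 h and 2476 ± 343 at 4 h in grf6 grf8, against 587 ± 154, 2703 ± 785 and 2565 ± 807 CPM in WT (mean ± SD, n = 4). The summed cutin level was 145 ± 32.9, 702 ± 166 and 404 ± 67.6 CPM in grf6 grf8 and 139 ± 37.3, 935 ± 364 and 434 ± 209.6 CPM in WT, and CYP86A2 alone averaged 551 CPM in grf6 grf8 and 726 CPM in WT at 2 h. The wax sum stayed raised at 4 h, while the cutin sum at 4 h stood between its levels at 0 h and 2 h in both genotypes.

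**Figure D4:**
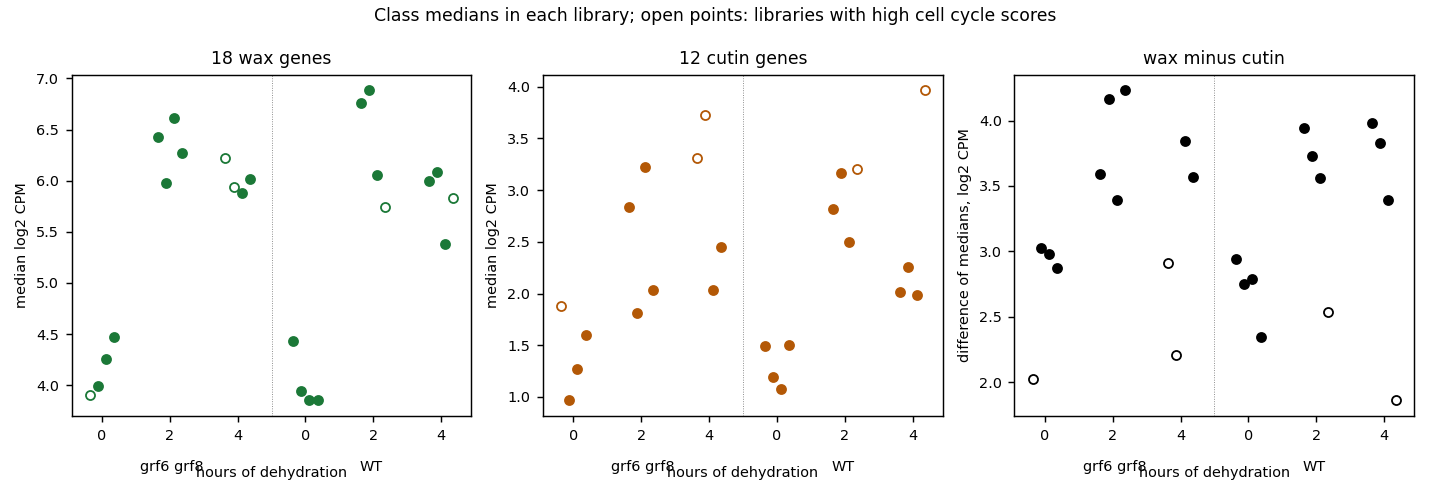
Median log2 CPM of the 18 wax genes (left), the 12 cutin genes (middle) and their difference (right) in each library, with 0 h, 2 h and 4 h of grf6 grf8 left of those of WT; open points are the 5 libraries with high cell cycle scores. At 4 h the open points have the highest cutin medians, 3.31 and 3.73 in grf6 grf8 and 3.97 in WT, and the smallest differences, 2.91 and 2.21 in grf6 grf8 and 1.86 in WT.

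Between 2 h and 4 h few of the genes passed. In grf6 grf8, 3 of 45 passed, beside 12.1% of all tested genes (6.34% rose and 5.79% fell): AT1G02190 rose (2.65 on the log2 scale, SE 0.776, adjusted p = 0.03) and CER10 (-0.93 on the log2 scale, SE 0.231, adjusted p = 0.0122) and CER2 (-1.08 on the log2 scale, SE 0.296, adjusted p = 0.0212) fell. In WT, 4 passed, all falling, beside 4.69% of all tested genes (2.57% rose and 2.12% fell): CER10 (-1.23 on the log2 scale, SE 0.233, adjusted p = 0.00406), CER2 (-1.10 on the log2 scale, SE 0.295, adjusted p = 0.036), GPAT4 (-1.11 on the log2 scale, SE 0.317, adjusted p = 0.0478) and LTPG2 (-0.88 on the log2 scale, SE 0.252, adjusted p = 0.0485). The call of AT1G02190 was lost under 8 of the alternatives, among them only the groups compared and leaving out the 5 libraries (1.24 on the log2 scale, adjusted p = 0.253), grf6 grf8 2 h replicate 1, 2 or 4, or grf6 grf8 4 h replicate 1 or 2. In WT the calls of LTPG2, GPAT4 and CER2 were lost under 20, 17 and 6 of the alternatives, and that of CER10 under 1. In grf6 grf8 that of CER2 was lost without 2 h replicate 1 or 3 or 4 h replicate 3. CYP86A2 stood at -1.07 on the log2 scale in grf6 grf8 (adjusted p = 0.0616) and -1.22 in WT (adjusted p = 0.0606). Without the 5 libraries with high scores, 14 genes fell in WT, beside 11.5% of all tested genes: 5 wax, 5 cutin (CYP86A2, GPAT4, LACS2, CYP86A4 and CYP86A8), 3 export genes and CER7. In grf6 grf8, where that fit keeps 2 libraries at 4 h, 5 genes fell, beside 15.7% of all, and DEWAX rose (0.503 on the log2 scale, adjusted p = 0.0156). Leaving out WT 4 h replicate 4 alone gave 14 genes in WT and 8 in grf6 grf8, leaving out other single libraries gave as few as 1 in each, and fitting only the groups compared gave 0 in WT.

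No gene of the 45 passed between the genotypes at 0 h, 2 h or 4 h, or averaged over the times, where 0.0265%, 0.0212%, 0.0159% and 0.0849% of all tested genes passed. None passed for a difference between genotypes of the 2 h or the 4 h response, where 0.00531% of all passed for each. At an unadjusted p under 0.05 stood KCS2 at 0 h, DEWAX at 4 h and averaged over the times, and KCS2 and DEWAX for the difference of the 4 h response. DESeq2 called none of them either, and the lowest adjusted p under any alternative was 0.0819, for DEWAX at 4 h when the cell cycle score was a covariate. DEWAX at 4 h had a log2 fold change of 0.46 for grf6 grf8 over WT (95% interval 0.07 to 0.85, adjusted p = 1), and WT 4 h replicate 3 lay within the range of grf6 grf8. KCS2 at 0 h had a log2 fold change of -1.63, on levels under 5 CPM in all libraries, and the difference of its 4 h response was 1.74 on the log2 scale (95% interval 0.13 to 3.35, adjusted p = 1).

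The intervals give the size of the genotype differences that these libraries leave possible. Averaged over the times, the difference of grf6 grf8 over WT was 0.29 (95% interval -0.39 to 0.96) for CER1, -0.31 (95% interval -0.77 to 0.16) for CER3, -0.13 (95% interval -0.47 to 0.22) for CER6 and 0.02 (95% interval -0.54 to 0.58) for WSD1, all as log2 fold changes. For CYP86A2 it was -0.21 (95% interval -0.65 to 0.23), for LACS2 -0.20 (95% interval -0.73 to 0.33) and for MYB96 0.04 (95% interval -0.27 to 0.35). In 32 of the 45 genes the interval lay within a 2-fold change in either direction, and in 22 within 1.5-fold. At 4 h alone 22 intervals lay within 2-fold, and 12 did for the difference of the 4 h response.

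**Figure D5:**
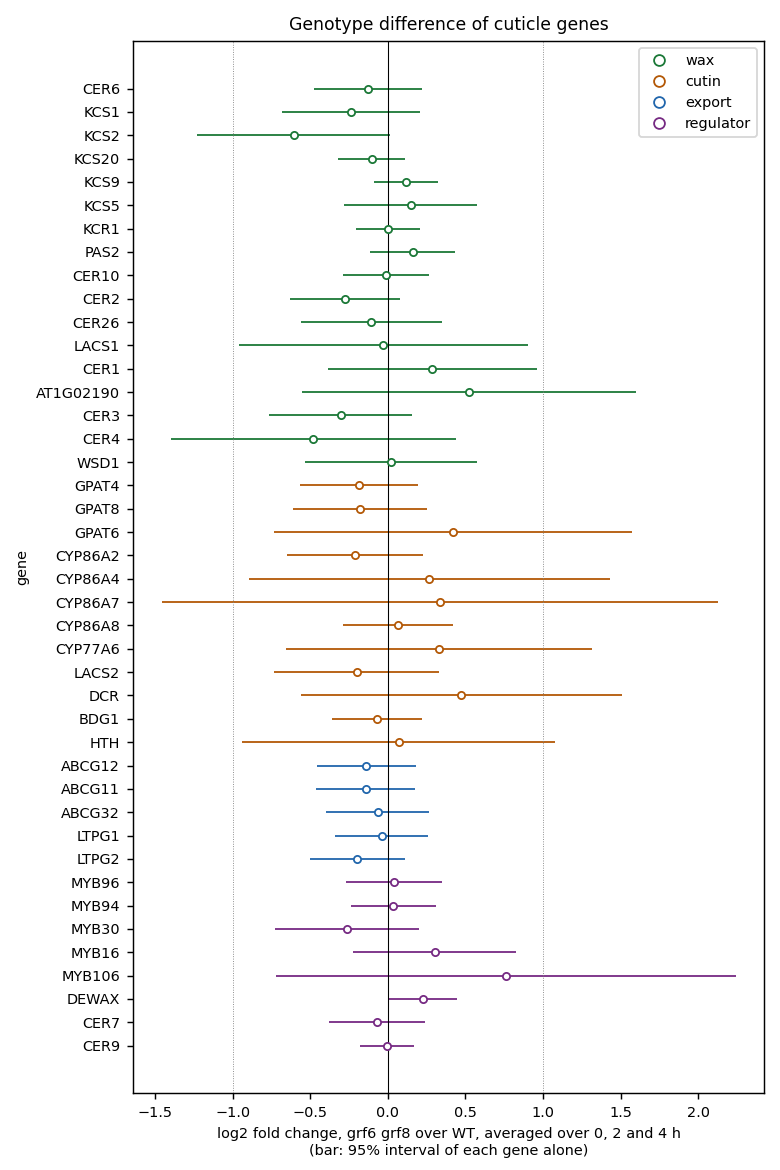
Log2 fold change of grf6 grf8 over WT, averaged over 0 h, 2 h and 4 h, for 42 genes; bars are the 95% interval of each gene alone and dotted lines mark a 2-fold change. All intervals but that of DEWAX (0.002 to 0.446) include 0, and intervals are widest for genes with low counts, such as CYP86A7 and MYB106.

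Other genes of the pathway changed in both directions, beside 43.5% and 51.2% of all tested genes that passed at 2 h and 4 h in grf6 grf8 and 42.3% and 50.0% in WT. Of 15 further condensing enzymes 10 were tested, of which 2 rose and 3 fell at 2 h and 5 rose and 2 fell at 4 h in grf6 grf8, and 4 rose and 2 fell, and 5 rose and 2 fell, in WT. At 2 h these 5 and 6 of 10 are near the share of all genes. KCS3 averaged 19.1, 258 and 255 CPM at the 3 times in grf6 grf8 and 16.7, 262 and 287 CPM in WT (4.10 on the log2 scale, SE 0.373, adjusted p = 2.17e-08 at 4 h in WT). KCS10 also rose (1.62 on the log2 scale, SE 0.273, adjusted p = 4.88e-05 at 4 h in WT), as did KCS4 (1.51 on the log2 scale, SE 0.190, adjusted p = 1.49e-06), and KCS12 fell (-3.21 on the log2 scale, SE 0.482, adjusted p = 1.36e-05). Of 16 other cuticle genes 15 were tested: 8 rose and 2 fell at 2 h and 7 rose and 3 fell at 4 h in grf6 grf8, and 6 rose and 2 fell, and 9 rose and 2 fell, in WT. FATB, which releases the fatty acids that enter elongation, averaged 80.6, 159 and 288 CPM in grf6 grf8 and 71.4, 169 and 297 CPM in WT (2.06 on the log2 scale, SE 0.182, adjusted p = 1.48e-08 at 4 h in WT). ACC1, the carboxylase that supplies malonyl-CoA, rose at 4 h in WT (1.15 on the log2 scale, SE 0.187, adjusted p = 3.48e-05), the locus AT3G49210 rose (2.56 on the log2 scale, SE 0.337, adjusted p = 2.74e-06) and the locus AT5G07580 fell (-2.57 on the log2 scale, SE 0.313, adjusted p = 1.03e-06). Of 12 suberin genes 7 were tested, of which 4 rose and 2 fell at 4 h in each genotype. ASFT, a feruloyl transferase of suberin, rose in WT (4.64 on the log2 scale, SE 0.722, adjusted p = 2.03e-05 at 4 h), FAR1, an acyl reductase that makes suberin alcohols, rose (2.00 on the log2 scale, SE 0.348, adjusted p = 7.24e-05) and the transporter gene ABCG2 fell (-1.504 on the log2 scale, SE 0.324, adjusted p = 0.000622). GPAT7, an acyltransferase, also passed as higher in WT (adjusted p = 0.00197), from 0 CPM before dehydration to a mean of only 0.399 CPM at 4 h.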

How the data were processed

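Leaf mRNA libraries were made with a kit that does not keep strand, named in the labels' protocols, and fell into 6 groups of 4. The authors deposited expected counts and FPKM per gene. The submitters' processing notes name TAIR10, RSEM, HISAT2, edgeR, DESeq2, StringTie 1.3.1, Bowtie2 2.2.8 and fastp 0.18.0, and the role of each is not given in the sources used here. The deposited expected counts held only whole numbers and were used as they stand, and the FPKM values by the authors served only to set genes side by side per length.

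Counts were fitted in edgeR 4.0.16 (R 4.3.3, limma 3.58.1) over all 24 libraries as 6 groups, with TMM normalization (factors 0.843 to 1.28) and the default expression filter, which left 18841 genes. Quasi-likelihood tests, two-sided, were made for 12 comparisons, each with Benjamini-Hochberg adjustment over all tested genes, and the biological coefficient of variation was 32.9%. Intervals cover 95% and are not adjusted. The fit was tested on simulated counts with known changes between WT at 4 h and 0 h. It recovered 13.4% of 67 changes of 1.5-fold, 46.3% of 67 of 2-fold and 74.6% of 63 of 4-fold among 18630 genes. Of its calls 1.14% were false. In the real comparison of WT at 4 h and 0 h 50.0% of tested genes passed, which eases the adjusted cutoff. The simulated rates therefore do not describe the comparisons between times. Where few genes change, as in the simulation, many changes of 2-fold or less can thus go uncalled.

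The 46 members, their classes and the other lists were chosen with earlier results of these data known. Values in each library are given for the members listed by name (CER1, CER3, CER6, WSD1, MYB96, MYB94, DEWAX, SHN1, LACS2, GPAT4, GPAT8, DCR and CYP86A2) and for up to 3 members of each finer class with the smallest adjusted p in WT at 4 h; other lists are named by up to 4 such genes. MAH1 and the 4 h values of GPAT6, CYP86A4, CYP86A7 and MYB106 were added after their values were seen. Alternatives were DESeq2 1.42.0, its size factors, no filter on low counts, a stricter filter (genes averaging 5 CPM or more, with 4 or more libraries above 1 CPM), only the groups compared, the replicate number as a block, each library left out, and the 5 libraries with high cell cycle scores left out or the score as a covariate. Intervals and floors cover counting error and the spread between libraries only.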

Additional observations from a re-analysis of the deposited data

Results flagged for a closer look

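In 25 of 255 groups of 4 libraries examined, 1 library of a gene lay far from the other 3, its gap to the nearest taking up more of the group's range than Dixon's 95% critical value allows. Chance alone flags about 1 in 20 groups, and groups of low counts share libraries.

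WT 4 h replicate 4, which also has a high cell cycle score, was the high library for 11 of these. There LACS1 stood at 48.6 CPM, MAH1 at 15.6, GPAT6 at 5.96, CYP86A4 at 6.75, CYP77A6 at 2.60, DCR at 43.0, HTH at 20.3, MYB106 at 8.60, SHN1 at 0.441, SHN3 at 2.65 and CER7 at 17.8 CPM. WT 2 h replicate 4 was the high library for MAH1 (2.14 CPM) and SHN3 (2.34 CPM) and the low one for KCS20 (96.0 CPM, against 163 CPM in the nearest). Of the other libraries with high scores, grf6 grf8 4 h replicate 2 was the high one for KCS5 (49.4 CPM) and the low one for ABCG11 (80.9 CPM).

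In grf6 grf8 2 h replicate 3, ABCG12 (324 CPM), MAH1 (0.855 CPM) and SHN1 (0.997 CPM) were high and DEWAX (37.7 CPM) was low. In grf6 grf8 2 h replicate 2, LTPG1 (122.5 CPM) and MYB16 (4.60 CPM) were low. CER10 was high in grf6 grf8 0 h replicate 4 (31.8 CPM), LTPG2 in WT 0 h replicate 1 (12.2 CPM) and CYP86A4 in WT 0 h replicate 4 (0.653 CPM). The part of tissue make-up, plant or library in these values was not tested.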

How the results depend on the processing

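No gene that passed changed direction under any alternative that still tested it. The wax median minus the cutin median of grf6 grf8 against WT averaged over the times, a value with no test, was -0.088 and turned to 0.108 under the stricter filter, 0.02 without the 5 libraries with high cell cycle scores and 0.053 with the score as a covariate. The counts of genes that passed at 2 h and at 4 h against 0 h stayed within 1.5 times of those reported, being 24 to 26 and 29 to 35 in grf6 grf8 and 25 to 31 and 29 to 33 in WT when single libraries were left out. Counts between the genotypes stayed at 0 under every alternative, DESeq2 included. For 4 h against 2 h, the 3 genes of grf6 grf8 became 7 with DESeq2, 6 without the 5 libraries with high cell cycle scores and 8 with the score as a covariate, and 1 to 8 with single libraries left out. The 4 genes of WT became 8 with DESeq2, 0 with only the groups compared, 14 without the 5 libraries and 13 with the score as a covariate, and 1 to 14 with single libraries left out, the last without WT 4 h replicate 4. In grf6 grf8 at 2 h the wax median minus the cutin median was 1.328. It was 1.083 to 1.667 with single libraries left out and 0.538 under the stricter filter. At 4 h the difference was 1.61 and 1.29 in grf6 grf8 without the 5 libraries and with the covariate. In WT at 4 h the same fits gave 1.86 and 1.41, against 0.505, and leaving out single libraries gave 0.398 to 1.85. In WT at 2 h the difference was 0.58 with MAH1 at its fitted value. It was 1.102 without the 5 libraries, 0.301 under the stricter filter and 0.368 to 1.097 with single libraries left out. In grf6 grf8 at 4 h single libraries left out gave 0.074 to 0.552, against 0.374. The cause of these shifts was not tested. Replicate numbers were not taken to pair the libraries. Correlations of same-numbered libraries ran from -0.783 to 0.629, and in none of the 15 pairs of groups were all 4 over 0.1, although all 4 were above 0 for grf6 grf8 0 h with WT 0 h (0.0936 to 0.329) and for WT 4 h with WT 2 h (0.0901 to 0.629). In 28 of 120 cases a library correlated best with its own number in another group. With the number as a replicate block 1 gene passed in WT for 4 h against 2 h, and no other count left the range of 1.5 times. Of the single-gene results in fits that still tested the gene, 3847 kept direction and call and 166 lost the call. Of these 26 were for KCS9 in grf6 grf8 at 4 h, 20 for LTPG2 and 17 for GPAT4 in WT for 4 h against 2 h and 16 for AT1G02190 in grf6 grf8 at 2 h. Genes that the stricter filter removed, AT1G02190 among them, are counted there as neither, here and in the numbers of alternatives above. Under that filter 26 genes passed at 4 h in grf6 grf8, against 34, and 26 in WT, against 33. Genes with few counts such as CYP86A7, MAH1, SHN1 and SHN3 have the least certain values. The comparison averaged over the times has no fit of only the groups compared.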
